A study of Mus musculus with 24 samples.

Results

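The genes of the unfolded protein response and of protein folding in the endoplasmic reticulum (ER) were followed through 24 RNA-seq libraries of T cells sorted from mouse tumours. The 39 genes were taken by symbol from the count table. They filled 40 of its 54957 gene rows, because Ddit3 has a further row (ENSMUSG00000116429.1) that lies over the same locus on chromosome 10 and was at 0 in every library. All 39 symbols had counts, among 26497 rows with a count in any library. They are 3 chaperones (Hspa5, Hsp90b1, Hyou1), 5 co-chaperones (Dnajb11, Dnajb9, Dnajc3, Manf, Sdf2l1), the lectin chaperones Calr and Canx, 6 genes of disulfide exchange (Creld2, P4hb, Pdia3, Pdia4, Pdia6, Txndc5), the prolyl isomerase Ppib, and 8 genes of ER-associated degradation (Derl1, Derl2, Derl3, Edem1, Edem2, Herpud1, Sel1l, Syvn1). The others are 3 stress sensors (Atf6, Eif2ak3, Ern1), 4 factors downstream of them (Atf4, Ddit3, Trib3, Xbp1) and 7 genes of entry into the ER (Sec61a1, Sec61b, Spcs1, Spcs2, Ssr1, Ssr2, Ssr3).

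The mice bore B16F10-OVA tumours, a melanoma line engineered to make ovalbumin, and every mouse received an antibody. The dose was 200 µg of an isotype control, of an antibody to PD-1, or of an antibody to JAML, also called AMICA1. PD-1 restrains T cells that have met antigen, and JAML is a junctional adhesion molecule of leukocytes. Tumours were taken 1 day later, and 2 populations were sorted, CD8+ T cells and CD4+FOXP3+ regulatory T (Treg) cells, under 400 cells per library. This gave 6 groups of 4 libraries, numbered 1 to 4 in each group. The labels do not give the mouse strain, sex or age, and do not say whether the 4 libraries came from separate mice, so a p-value measures only the spread between libraries, which may be technical.

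Proteins bound for the membrane or for secretion enter the ER through the Sec61 channel, have their signal peptide removed, and fold with the help of chaperones, lectins and enzymes that make disulfide bonds. Proteins that fail to fold are drawn back into the cytosol and degraded, which is ER-associated degradation (ERAD). When unfolded protein accumulates, 3 membrane sensors respond. IRE1 (gene Ern1) splices the mRNA of Xbp1 into the form that encodes an active transcription factor, ATF6 is cleaved to release a factor of its own, and PERK (gene Eif2ak3) phosphorylates eIF2alpha, which slows translation while raising that of ATF4. In activated and effector lymphocytes this response is known to expand the folding capacity of the ER. Counts per gene cannot show splicing of Xbp1, cleavage of ATF6 or phosphorylation, so these steps were not measured.

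ATF6, with the factor NF-Y, is known to act through the ER stress response element (ERSE), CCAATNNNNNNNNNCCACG. RefSeq promoter windows of 300 bases, 250 before to 50 after the start, were at hand for 33 of the 39 genes (GRCm38.p6, the mm10 assembly). The element, read on both strands and allowing no mismatch, was found in the windows of 9 of these 33 genes (27.3%) and of 37 of all 27025 genes with a window (0.137%). The 9 are given because they include the most abundant chaperones and several genes that passed the test between populations. Each sequence runs 5′ to 3′ on the strand of its gene, and capitals mark the element, which opens with CGTGG and closes with ATTGG where it lies in reverse. The Hsp90b1 window is longer because it holds 2 copies.
Hspa5, chr2:34772020-34772048, plus strand: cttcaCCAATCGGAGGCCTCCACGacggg
Hsp90b1, chr10:86705510-86705694, minus strand: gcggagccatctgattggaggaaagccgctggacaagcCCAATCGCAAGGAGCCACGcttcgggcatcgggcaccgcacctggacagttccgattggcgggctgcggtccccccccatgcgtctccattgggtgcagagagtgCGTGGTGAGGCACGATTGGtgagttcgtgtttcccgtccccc
Calr, chr8:84847060-84847108, minus strand: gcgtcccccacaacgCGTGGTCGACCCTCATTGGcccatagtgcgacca
Canx, chr11:50325785-50325833, minus strand: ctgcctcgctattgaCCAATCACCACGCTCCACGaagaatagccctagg
Creld2, chr15:88819505-88819553, plus strand: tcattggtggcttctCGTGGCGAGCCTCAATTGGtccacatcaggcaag
Pdia6, chr12:17266476-17266524, plus strand: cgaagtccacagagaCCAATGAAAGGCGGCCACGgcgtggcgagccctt
Dnajc3, chr14:118937812-118937860, plus strand: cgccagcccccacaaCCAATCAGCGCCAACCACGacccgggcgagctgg
Derl3, chr10:75893227-75893275, plus strand: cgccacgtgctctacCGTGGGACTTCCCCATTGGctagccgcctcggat
Syvn1, chr19:6046517-6046565, plus strand: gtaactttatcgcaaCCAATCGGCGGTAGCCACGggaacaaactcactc

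All the elements lay before the start, at -65 to -47 in Hspa5, -107 to -89 and -212 to -194 in Hsp90b1, -162 to -144 in Calr, -145 to -127 in Canx and -126 to -108 in Creld2. They lay at -98 to -80 in Pdia6, -105 to -87 in Dnajc3, -156 to -138 in Derl3 and -44 to -26 in Syvn1. The Hspa5 window falls inside the GENCODE M21 model of that gene, whose annotated start is further upstream than the RefSeq one. The other windows do not overlap the model of their own gene in that annotation, and overlap with other genes was not examined. The related ERSE-II, ATTGG and CCACG with 1 base between them, was in the windows of Dnajb11 and Herpud1 (6.06% of members, 0.0444% of all genes). TGACGTGG, a core of the XBP1 element, was in that of Txndc5 (3.03%, against 0.714%). TGATGNAAN, bound by ATF4 dimers, was in those of Herpud1, Trib3 and Txndc5 (9.09%, against 4.5%). CCAAT alone, which every ERSE contains, was in 25 of the 33 (75.8%, against 41.1%). A match describes letters in the window, not binding.

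Libraries held 11170918 to 22556460 counts. The sorts fitted their labels: Cd8a was at 1096 to 1898 CPM (counts scaled for library size) in CD8 libraries and 0 to 0.0761 in Treg libraries, and Foxp3 was at 0 in every CD8 library and 40.6 to 169 in Treg libraries. Plasma cells are rich in these ER genes, and their defining markers Jchain (at most 0.206 CPM) and Mzb1 (at most 0.125) were at or near 0. The plasma list of 7 genes, most of it Ighm, summed to 626 to 1248 CPM in Treg libraries, 448 to 536 in CD8 cells after isotype, 275 to 387 with anti-PD-1, and 319, 873, 374 and 691 with anti-JAML. In that list Igkc was higher in CD8 than in Treg cells after isotype (1.27 ± 0.36, edgeR adjusted p 0.0422). Ighm (-1.29 ± 0.20, edgeR adjusted p 0.00323) and Prdm1 (-0.93 ± 0.17, 0.00695) were lower there. Of B cell genes, Ms4a1 was at 0 in every library, while Cd79b was at 12.7 to 46.6 CPM in Treg and 2.04 to 9.73 in CD8 libraries after isotype (-2.40 ± 0.63, edgeR adjusted p 0.0314). The part of these genes in the results was not tested. Summed CPM of 9 macrophage genes was 775 and 1141 in Treg anti-PD-1 libraries 1 and 4 and 460 in CD8 anti-JAML library 2, against 5.43 to 150.0 in the other 21. The 5 erythroid genes summed to 498 and 405 CPM in CD8 anti-JAML libraries 2 and 4, 276 in CD8 isotype library 3, 694 in Treg anti-PD-1 library 1 and 1373 in Treg anti-JAML library 4, against 0 to 8.69 in the others. CD8 anti-JAML library 4 had 6.89% mitochondrial counts. Medians that rest on these groups are also given without libraries 1 and 4 (Treg anti-PD-1) or 2 and 4 (CD8 anti-JAML). Fewer cells of a kind and less RNA per cell cannot be told apart in such bulk samples.

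The 39 genes together took 0.646 ± 0.0559% of the counts of Treg libraries after isotype (mean ± SD, n = 4), 0.885 ± 0.0566% with anti-PD-1 and 0.707 ± 0.0382% with anti-JAML. In CD8 libraries the share was 0.801 ± 0.0382% after isotype, 1.00 ± 0.0892% with anti-PD-1 and 0.765 ± 0.0316% with anti-JAML. Anti-PD-1 groups thus held the highest share in each population, and Treg cells after isotype the lowest of all. Of the 39 genes, 14 had their highest group mean in CD8 cells after anti-PD-1 and 9 in CD8 cells after isotype. For 22 of them the lowest mean was that of Treg cells after isotype. The genes were steady between libraries of a group, with a median within-group SD of 0.371 on the log2 CPM scale against 0.769 over the 14591 genes tested in 24 libraries. Those 14591 genes were not matched to the 39 in level, so the part of level in this contrast was not tested. Dnajc3 (0.165), Pdia3 (0.183) and Calr (0.196) varied least, and Trib3 (1.41), Eif2ak3 (1.28) and Ern1 (1.04) most.

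**Figure D1:**
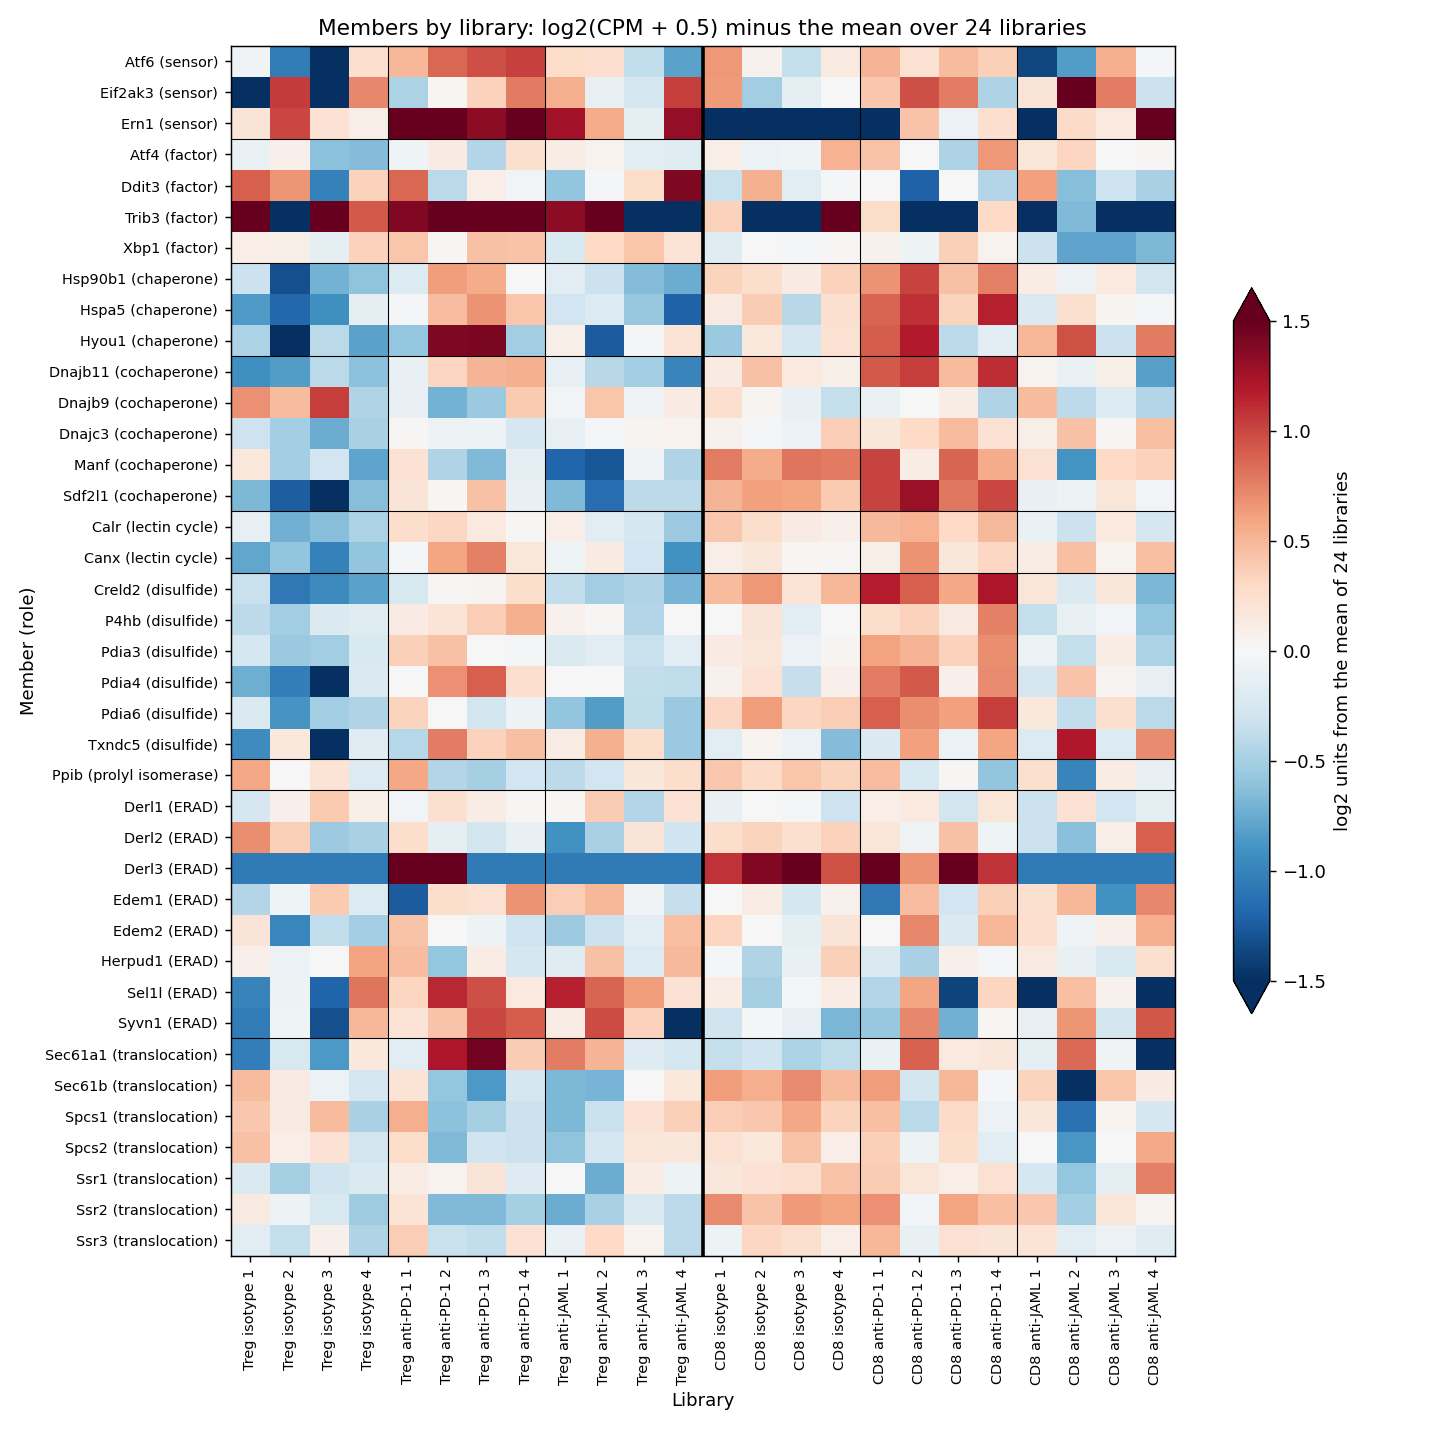
Each row is 1 of the 39 genes, ordered by role, and each column 1 of the 24 libraries; colour is log2(CPM + 0.5) minus the gene's mean over all libraries, clipped at 1.5 in either direction. Most chaperone and disulfide rows are blue (below the mean) in the 4 Treg isotype libraries and red (above it) in the 4 CD8 anti-PD-1 libraries, while the sensors and Trib3 scatter within groups.

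Compared per length, in the authors' TPM, Spcs1, Sec61b, Spcs2 and the oxidoreductase Pdia3 led in Treg cells after isotype, and the 3 sensors, Hyou1, Trib3 and Derl3 came last there. In Treg cells after isotype Spcs1, a subunit of the signal peptidase, stood at 520.3 ± 95.6 TPM, Sec61b, a subunit of the channel, at 507 ± 68.4 and Pdia3 at 486 ± 107, which do not differ beyond their spread. After anti-PD-1 Pdia3 led both populations, at 850.1 ± 171 TPM in Treg cells and 927 ± 161 in CD8 cells, with Hspa5 at 603 ± 195 and 727 ± 237. Pdia3 also led both populations after anti-JAML, at 603 ± 97.2 TPM in Treg cells and 599 ± 115 in CD8 cells. Hspa5 had been at 238 ± 116 TPM in Treg cells after isotype. Ern1 was the lowest in CD8 cells after isotype, at 0.0489 ± 0.0830 TPM, and in Treg cells after isotype it stood at 1.30 ± 0.440, next to Derl3, which was listed at 0. Values below are CPM scaled by TMM size factors, in the order of libraries 1 to 4, and serve to compare libraries, not genes.

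The 3 chaperones had their lowest group mean in Treg cells after isotype. Hspa5 (ENSMUSG00000026864.13, chr2:34771970-34777547), which encodes BiP, the main ER chaperone, was at 386, 307, 366 and 626 CPM in Treg libraries after isotype, 680.3, 954, 1112 and 927 with anti-PD-1 and 569, 601, 467 and 299.9 with anti-JAML. In CD8 libraries it was at 762, 903, 521 and 823 after isotype, 1273, 1485, 873 and 1554 with anti-PD-1 and 599, 822, 714 and 678 with anti-JAML. Every Treg anti-PD-1 library exceeded every Treg library of the other antibodies, and every CD8 anti-PD-1 library exceeded every CD8 anti-JAML library. Hsp90b1, which encodes GRP94, the ER member of the HSP90 family, was at 308, 154, 235 and 254 in Treg cells after isotype, 334, 596, 569.7 and 385 with anti-PD-1 and 343, 308, 245 and 231 with anti-JAML. In CD8 cells its values were 487, 465, 421 and 489.6 after isotype, 618, 780.1, 525 and 652 with anti-PD-1 and 418, 366, 426 and 319.9 with anti-JAML. The 3 CD8 groups of Hsp90b1 did not overlap, with anti-PD-1 highest, except that isotype and anti-JAML met between 421 and 426. Hyou1, a large HSP70-like chaperone, was low throughout, at 3.69 to 46.0 CPM.

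Among co-chaperones, Sdf2l1 separated all 3 antibodies in CD8 cells. Its product binds ER DnaJ proteins that assist BiP, and the gene (ENSMUSG00000022769.9) lies at chr16:17130138-17132383. It was at 63.6, 43.1, 34.1 and 65.5 CPM in Treg cells after isotype, 117, 104, 138 and 94.7 with anti-PD-1 and 64.1, 46.1, 77.5 and 77.4 with anti-JAML. In CD8 cells it was at 146, 157, 154 and 134 after isotype, 207, 250.2, 177 and 205 with anti-PD-1 and 94.4, 96.7, 116 and 99.5 with anti-JAML, so the 3 CD8 groups did not overlap and ran anti-PD-1, isotype, anti-JAML from high to low. Dnajb11 (ERdj3), which hands unfolded proteins to BiP, was at 93.8, 99.3, 134 and 116 in Treg cells after isotype, 164, 222, 254 and 256 with anti-PD-1 and 163, 133, 124 and 88.9 with anti-JAML. In CD8 cells it was at 193, 241, 197 and 189 after isotype, 336, 364, 247 and 383 with anti-PD-1 and 184, 166, 188 and 101 with anti-JAML, with anti-PD-1 above both others. Manf, a secreted partner of BiP, was at 249, 215, 256 and 252 in CD8 cells after isotype, 297, 158, 269 and 216 with anti-PD-1 and 171, 78.6, 181 and 187 with anti-JAML. Its Treg values were 163, 103, 119.6 and 84.6 after isotype, 171, 107, 92.7 and 132 with anti-PD-1 and 64.0, 60.6, 141 and 107 with anti-JAML, all below those of CD8 cells after isotype. Dnajc3 (p58IPK), which restrains PERK and acts with BiP, was at 108, 93.3, 79.7 and 95.1 in Treg cells after isotype, 135, 127, 126 and 112 with anti-PD-1 and 122, 132, 137 and 139 with anti-JAML, and both antibody groups lay above isotype. Dnajb9 (ERdj4), known to repress IRE1, had its highest Treg mean in the isotype group. Its Treg values were 69.3, 59.8, 88.7 and 31.2 after isotype, 39.3, 26.0, 29.0 and 56.7 with anti-PD-1 and 41.7, 57.2, 41.4 and 46.7 with anti-JAML, with overlapping groups.

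The lectin chaperones hold newly made glycoproteins until they fold. Canx, the membrane-bound calnexin, was at 114, 130.1, 96.9 and 130.1 CPM in Treg cells after isotype, 193, 297, 334 and 219.9 with anti-PD-1 and 188, 214, 162 and 105 with anti-JAML. It varied little in CD8 cells, at 211, 222, 202 and 200.0 after isotype, 210.0, 315, 221 and 243 with anti-PD-1 and 213, 269, 204 and 269 with anti-JAML. Calr, its soluble counterpart calreticulin, was at 272, 179, 190.0 and 213 in Treg cells after isotype, 355, 367, 329 and 299.7 with anti-PD-1 and 317, 263, 247 and 203 with anti-JAML. In CD8 cells Calr was at 393, 355, 322 and 313 after isotype, 414, 426, 365 and 416 with anti-PD-1 and 277, 238, 327 and 249 with anti-JAML. In Treg cells both genes were higher in every anti-PD-1 library than in every isotype library, and in CD8 cells the groups of Canx overlapped.

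Of the disulfide genes, Pdia6 and Creld2 separated the populations after isotype and after anti-PD-1, but not after anti-JAML. Pdia3 also separated them after isotype. Pdia6, an oxidoreductase that also attenuates IRE1, was at 399, 497, 403 and 417 CPM in CD8 cells after isotype, 602, 524, 494 and 661 with anti-PD-1 and 359.7, 250.04, 381 and 243 with anti-JAML. Its Treg values were 277, 174, 224 and 235 after isotype, 406, 323, 266 and 305 with anti-PD-1 and 214, 179.9, 247 and 219.8 with anti-JAML. Creld2 (ENSMUSG00000023272.4, chr15:88819646-88826683), an ER stress-inducible protein with isomerase activity, was at 167, 189, 139 and 170.0 in CD8 cells after isotype, 272, 225, 179.7 and 279 with anti-PD-1 and 136, 103, 136 and 74.7 with anti-JAML. Its Treg values were 94.9, 56.8, 61.7 and 68.6 after isotype, 101, 121, 124 and 145 with anti-PD-1 and 92.7, 83.7, 87.5 and 74.1 with anti-JAML. For both genes every CD8 library after isotype or anti-PD-1 exceeded every Treg library of the same antibody, and every CD8 anti-JAML library was below every CD8 isotype library. Pdia3 (ERp57), which works with the lectins and in MHC class I loading, was at 717, 577, 594 and 727 in Treg cells after isotype and 1093, 1158, 857 and 841 after anti-PD-1. In CD8 cells Pdia3 was at 930.5, 969, 799 and 879 after isotype, 1296, 1215, 1084 and 1377 with anti-PD-1 and 808, 667, 921 and 613 with anti-JAML. Pdia4 (ERp72) was at 138, 111, 70.8 and 196 in Treg cells after isotype, 229, 369, 425 and 273 with anti-PD-1 and 229, 230.1, 177 and 175 with anti-JAML. Anti-PD-1 libraries stood above isotype libraries for Pdia3 in both populations and for Pdia4 in Treg cells. P4hb, the protein disulfide isomerase itself, was at 249.8 to 316 in Treg cells after isotype and 389 to 519 after anti-PD-1, and Txndc5 was at 13.8 to 137 over all libraries.

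Among the ERAD genes, Derl3 was at 0 in all libraries of 3 groups. Derl3, a derlin of the retrotranslocation channel that is strongly induced by XBP1 in secretory cells, had 155 counts over the 4 CD8 isotype libraries and 129 over the 4 CD8 anti-PD-1 libraries, and 0 in all 4 CD8 anti-JAML libraries. Its CD8 values were 1.70, 2.22, 6.35 and 1.52 CPM after isotype and 2.63, 1.16, 2.61 and 1.70 after anti-PD-1. In Treg cells Derl3 had 0 counts in every isotype and anti-JAML library and 3.96, 2.61, 0 and 0 CPM after anti-PD-1. Against a floor of 3 counts over the empty group, CD8 anti-JAML was at least 59.0-fold lower than CD8 isotype, as a bound on counting error only. Derl1 and Derl2, its ubiquitous relatives, ranged over 109 to 195 and 78.2 to 276 CPM. Syvn1, the ubiquitin ligase HRD1, ranged over 9.85 to 61.6 CPM and its adaptor Sel1l over 13.7 to 103. Herpud1, which organises that ligase, ranged over 131 to 297, and the mannosidase-like Edem1 and Edem2 over 59.6 to 236 and 47.4 to 155.

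Of the sensors, Atf6 was at 21.6, 10.5, 4.39 and 26.8 CPM in Treg cells after isotype, 31.7, 40.9, 44.1 and 46.1 with anti-PD-1 and 27.2, 26.6, 17.2 and 12.6 with anti-JAML. In CD8 cells it was at 35.3, 23.4, 17.3 and 24.6 after isotype, 32.1, 26.2, 31.3 and 28.8 with anti-PD-1 and 8.34, 12.2, 32.4 and 21.9 with anti-JAML. All 4 Treg anti-PD-1 libraries exceeded all other Treg libraries, and the CD8 groups overlapped. Ern1 was nearly absent from CD8 cells after isotype, at 0.0945, 0.682, 0 and 0, and at 0.730, 4.62, 3.08 and 4.01 with anti-PD-1 and 0, 4.13, 3.70 and 17.3 with anti-JAML. In Treg cells it was at 3.84, 7.12, 3.92 and 3.55 after isotype, 15.2, 12.3, 9.11 and 13.6 with anti-PD-1 and 8.60, 5.07, 2.98 and 8.95 with anti-JAML, and every Treg isotype library lay above every CD8 isotype library. Eif2ak3 was at 0, 15.2, 0 and 11.96 in Treg cells after isotype, with 2 libraries at 0, and at 11.2, 4.78, 6.35 and 7.01 in CD8 cells after isotype. Over all libraries Eif2ak3 ran from 0 to 27.2 and no groups could be separated.

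Among the factors, Xbp1 was at 208, 233, 230.3 and 237 CPM in CD8 cells after isotype, 245, 223, 300.3 and 244 with anti-PD-1 and 188, 136, 136 and 147 with anti-JAML. Its Treg values were 251, 249.7, 213 and 298 after isotype, 313, 237, 318 and 315 with anti-PD-1 and 199.7, 289.6, 314 and 269.6 with anti-JAML. All 4 CD8 anti-JAML libraries lay below every other library of the series for Xbp1. Atf4, the effector of the PERK branch, ranged over 41.0 to 76.5 in Treg and 46.7 to 102 in CD8 cells, and Ddit3 (CHOP), a pro-apoptotic target, over 6.59 to 37.2 and 5.67 to 21.3. Both overlapped between groups. Trib3, a pseudokinase induced through CHOP, was at 4.03, 7.38, 8.55 and 4.57 in Treg cells after anti-PD-1 and 1.61, 0, 0.116 and 1.64 in CD8 cells after anti-PD-1, at a depth of few reads.

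Among the genes of entry, Ssr1 and Ssr2 separated the populations after isotype and the channel genes differed among themselves. Ssr2, of the translocon-associated complex, was at 622, 513, 592 and 575 CPM in CD8 cells after isotype, 609.9, 370.4, 573 and 519 with anti-PD-1 and 502, 267, 433 and 392 with anti-JAML. Its Treg values were 418, 362, 323 and 263 after isotype, 437, 241, 241 and 269 with anti-PD-1 and 226, 272, 327 and 289 with anti-JAML. Ssr1, of the same complex, was at 219, 226, 232 and 262 in CD8 and 166, 137, 158 and 168 in Treg cells after isotype. Every isotype library of CD8 cells lay above every one of Treg cells for both. Sec61a1, the pore of the channel, was at 62.0, 109, 70.5 and 143 in Treg cells after isotype and 114, 296, 349 and 167 after anti-PD-1, while Sec61b was at 368, 290.2, 249 and 223 and 306, 178, 146 and 222. The 2 channel subunits therefore did not share a direction there. CD8 anti-JAML library 2, which also carried macrophage transcripts, was the lowest of its group for Sec61b at 86.2, against 289 to 354 in the other 3, and for Spcs1 at 145, against 264 to 353. Spcs2, of the signal peptidase, Ssr3 and the prolyl isomerase Ppib ranged over 411 to 1117, 140.1 to 271 and 58.2 to 174 CPM.

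**Figure D2:**
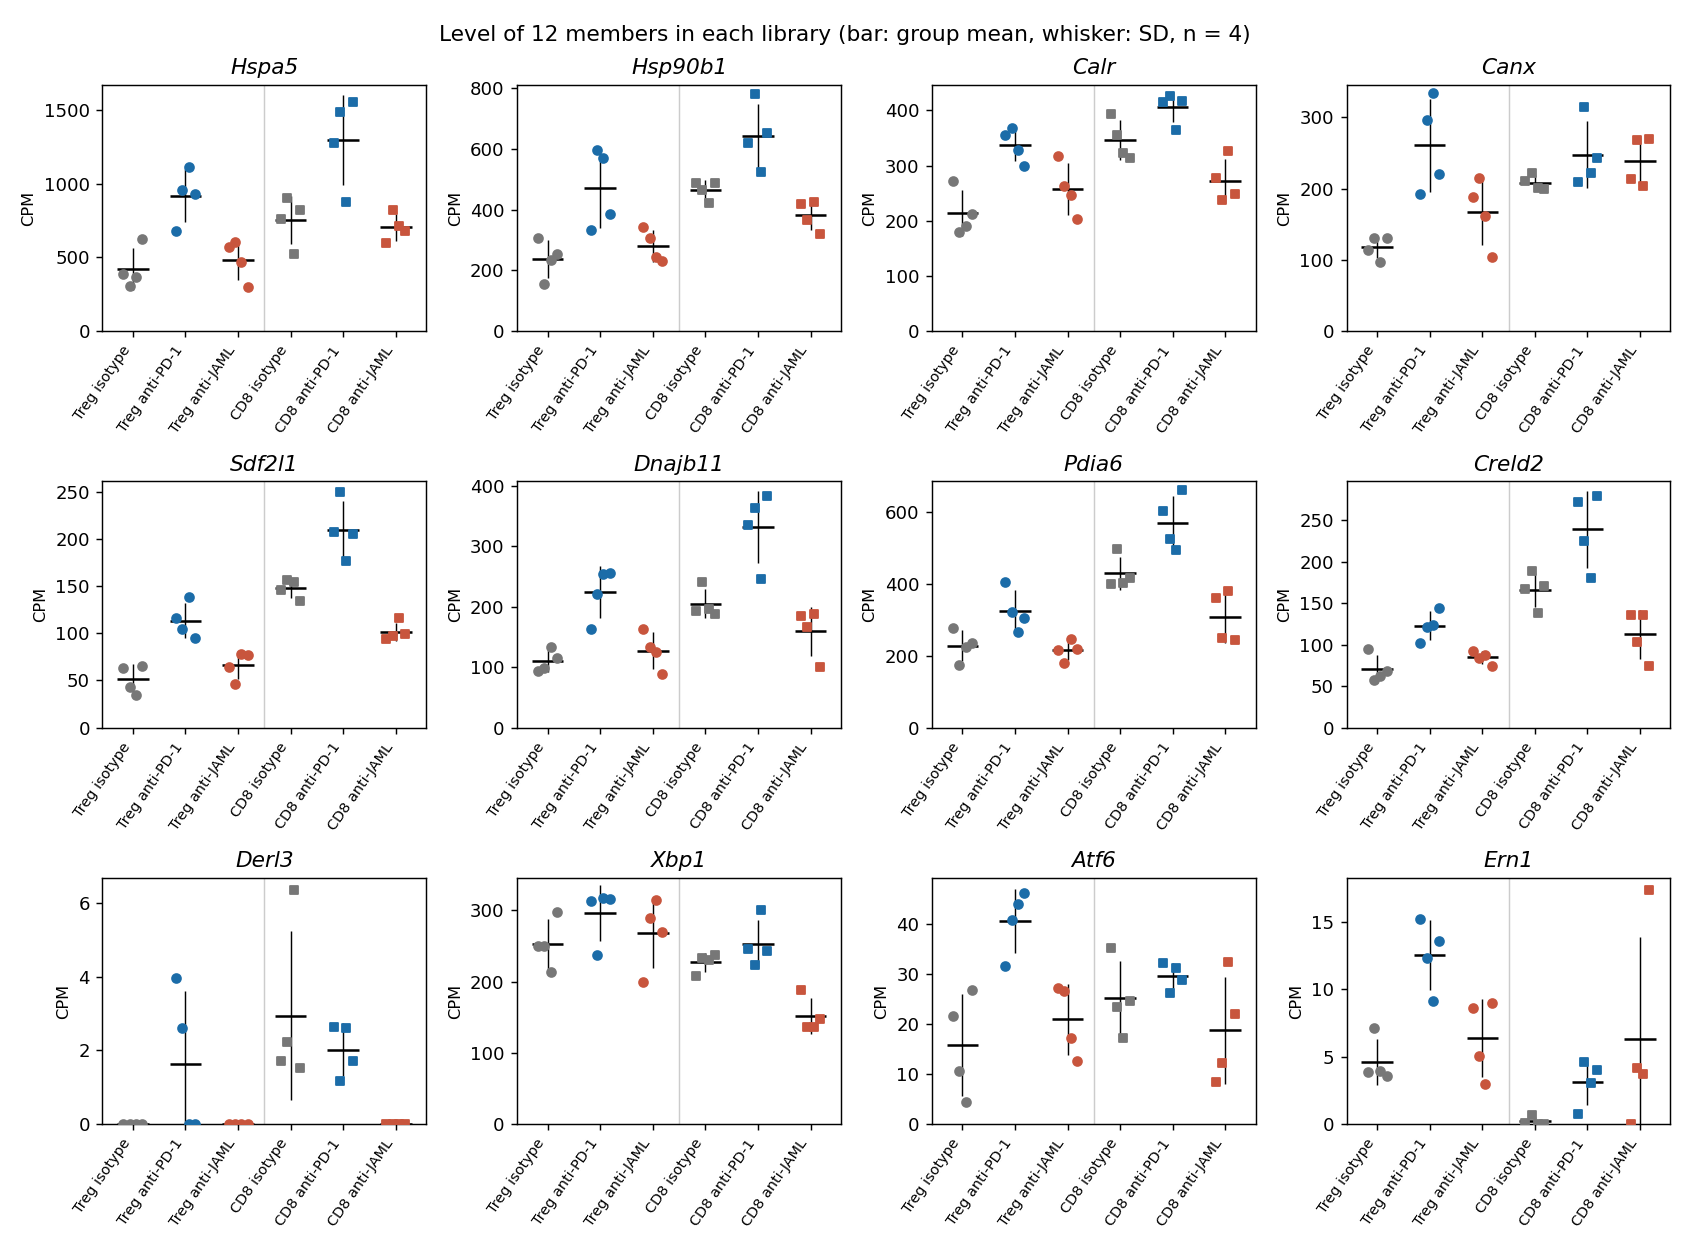
CPM of 12 of the genes in each library (points), by group, with the mean (bar) and SD (whisker) of 4 libraries on a linear axis for each gene. Sdf2l1, Dnajb11 and Creld2 are highest in CD8 cells after anti-PD-1, Derl3 is at 0 in 3 of the 6 groups, and Xbp1 is lowest in CD8 cells after anti-JAML.

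CD8 and Treg cells were first compared after the isotype antibody. Folding genes were higher in CD8 cells: 11 of the 39 passed the threshold (adjusted p under 0.05, edgeR's quasi-likelihood test, Benjamini-Hochberg over all 11680 genes tested), all 11 higher in CD8 cells. This is 28.2% of the genes, beside 15.3% of all genes tested. Sdf2l1 was 2.73-fold higher, with a log2 difference of 1.45 ± 0.22 (SE) and an edgeR adjusted p of 0.0033. Creld2 was 2.25-fold higher (1.17 ± 0.20, edgeR adjusted p 0.00503) and Canx 1.69-fold higher (0.76 ± 0.14, edgeR adjusted p 0.00692). Pdia6 (0.85 ± 0.16), Dnajb11 (0.82 ± 0.16), Manf (0.97 ± 0.20), Hsp90b1 (0.90 ± 0.20), Ssr2 (0.68 ± 0.16), Ssr1 (0.51 ± 0.13) and Calr (0.63 ± 0.16) were also higher, on the log2 scale, with edgeR adjusted p from 0.00815 to 0.0276. Derl3 was the eleventh, at least 73.8-fold higher (edgeR adjusted p 0.0173), from 155 counts against 0, and so entered the test only through the CD8 libraries. Its call was lost with no filter on low counts (edgeR adjusted p 0.0647) and without CD8 isotype library 1, 2 or 3 (0.0515 to 0.0581). Hspa5 had a difference of 0.77 ± 0.24 that missed the threshold (edgeR adjusted p 0.0628). By role, the 11 were 1 of 3 chaperones, 3 of 5 co-chaperones, both lectins, 2 of 6 disulfide genes, 1 of 8 ERAD genes and 2 of 7 genes of entry, with none of the sensors and factors.

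The lowest values in CD8 relative to Treg cells after isotype were those of Ern1 (-4.60 ± 1.60, edgeR adjusted p 0.0891), Dnajb9 (-0.64 ± 0.32, 0.236) and Xbp1 (-0.22 ± 0.13, 0.321), none past the threshold. The median over the 39 genes was 0.36 against -0.060 over all genes tested. At an unadjusted edgeR p under 0.05 there were 16 higher and 1 lower (background 13.8% and 13.9%), and DESeq2 called 14 higher and Ern1 lower (background 23.1%). The CPM of the groups did not overlap for 14 genes higher in CD8 cells and 1 lower, where the background was 16.6% and 9.96%. Derl3, at 0 in every Treg isotype library, is counted among these 14 genes. Without CD8 isotype library 1 the count was 7 rather than 11, with Derl3, Ssr1, Ssr2 and Calr no longer past the threshold. Ssr1 also lost its call with no filter (edgeR adjusted p 0.0894), in the fit of all 24 libraries (0.0878) and without Treg isotype library 2 or 3 or any 1 CD8 isotype library. Calr also lost its call without Treg isotype library 2 (0.0688) or 3 (0.0695) or CD8 isotype library 2 (0.0768).

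After anti-PD-1 the same comparison called 3 of 39 genes (7.69%, beside 7.83% of 12193 genes tested). Creld2 was 1.94-fold higher in CD8 cells (0.95 ± 0.19, edgeR adjusted p 0.0178), Sdf2l1 1.84-fold (0.88 ± 0.18, edgeR adjusted p 0.0189) and Pdia6 1.75-fold (0.80 ± 0.19, edgeR adjusted p 0.0285). All 3 had also passed after isotype, in other libraries. Lower in CD8 cells but not past the threshold were Ern1 (-2.02 ± 0.60, edgeR adjusted p 0.0676), Trib3 (-2.86 ± 1.23, 0.186) and Atf6 (-0.47 ± 0.23, 0.256). Hspa5 differed by 0.49 ± 0.22 and Canx by -0.081 ± 0.22, both smaller than after isotype, a change between antibodies whose test is given with the interactions. The median was 0.18 against -0.050 over all genes. Unadjusted edgeR p under 0.05 gave 7 higher and 2 lower (background 12.1% and 12%), DESeq2 called 5 higher and 2 lower (background 16.2%), and 4 genes lay above and 2 below without overlap (background 8.77% and 8.73%). The count was 0 without Treg anti-PD-1 library 2, CD8 anti-PD-1 library 1 or CD8 anti-PD-1 library 4, 1 without Treg anti-PD-1 library 4, and 5 without Treg anti-PD-1 library 1. Without Treg anti-PD-1 libraries 1 and 4, the 2 that held macrophage transcripts, the median was 0.30 and 4 genes passed, with Sdf2l1 at an edgeR adjusted p of 0.0542.

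After anti-JAML no gene of the 37 tested passed the edgeR threshold (background 2.08% of 11950 genes). Xbp1 came closest and was lower in CD8 cells, -0.91 ± 0.21 on the log2 scale (edgeR adjusted p 0.0575), with no overlap between the groups; DESeq2 called it alone (adjusted p 0.00123, background 7.98%). Sdf2l1 (0.53 ± 0.23, edgeR adjusted p 0.375), Pdia6 (0.43 ± 0.21, 0.45) and Ssr2 (0.43 ± 0.22, 0.487) had the smallest p among genes with higher values in CD8 cells, and Sel1l (-1.25 ± 0.51, 0.327) and P4hb (-0.27 ± 0.21, 0.691) followed Xbp1 among the lower ones. The median was 0.086, beside -0.025 over all genes. There were 1 higher and 2 lower at an unadjusted edgeR p under 0.05 (background 5.67% and 7.15%), and 1 gene above and 1 below without overlap (background 5.08% and 6.13%). Derl3 and Trib3 had too few reads to be tested by edgeR. Without CD8 anti-JAML libraries 2 and 4 the median was 0.018.

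Within CD8 cells, anti-PD-1 was compared with isotype. Folding genes had higher values after anti-PD-1, but none of the 39 passed the edgeR threshold, nor did any gene of the 12648 tested (background 0%). Hspa5 had a log2 difference of 0.81 ± 0.22 (edgeR adjusted p 0.831), Sdf2l1 of 0.53 ± 0.15 (0.856) and Dnajb11 of 0.72 ± 0.21 (0.856). Pdia4 (0.66), Creld2 (0.55), Pdia3 (0.50), Hsp90b1 (0.50), Pdia6 (0.43), P4hb (0.41) and Ern1 (4.02, from few reads) made up the 10 genes at an unadjusted p under 0.05, all higher, where the background was 4.06% higher and 1.55% lower. Ppib (-0.38 ± 0.26), Spcs1 (-0.31 ± 0.25) and Sec61b (-0.31 ± 0.34) had the smallest p among the lower ones, at edgeR adjusted p from 0.996 to 1. DESeq2 called none of the 39 (background 0.436%). Groups did not overlap for 6 genes, all higher, Sdf2l1, Dnajb11, Pdia3, Hsp90b1, Ern1 and Sec61a1 (background 3.49% higher, 3.36% lower). The median was 0.23, beside 0.036 over all genes.

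Anti-JAML against isotype in CD8 cells also gave no edgeR call among the 39 or all genes (background 0%). Lower values prevailed among folding genes. Xbp1 had a log2 difference of -0.54 ± 0.15 (edgeR adjusted p 0.297), Sdf2l1 of -0.50 ± 0.15 (0.327) and Derl3 was at least 59.0-fold lower (0.185). Ern1 (5.04 ± 1.78, 0.354), Txndc5 (0.75 ± 0.34, 0.417) and Syvn1 (0.70 ± 0.39, 0.501) had the smallest p among higher ones. At an unadjusted edgeR p under 0.05 there were 2 higher and 8 lower (background 6.85% and 4.87%). DESeq2 called Ern1 higher and Derl3, Xbp1 and Sdf2l1 lower (background 2.17%). Ern1 rests on few reads, was highest in anti-JAML library 4, and its groups overlapped. In 11 genes every anti-JAML library lay below every isotype library, among them Xbp1, Sdf2l1, Creld2, Ssr2, Pdia6 and Dnajb11, and in 0 above (background 6.29% lower, 2.85% higher). Derl3 is also among the 11 and entered the test only through the groups in which it had counts. The median was -0.18, against 0.095 over all genes. Erythroid genes summed to 498 and 405 CPM in anti-JAML libraries 2 and 4 and to 276 in isotype library 3, and their part was not tested. Without anti-JAML libraries 2 and 4 the median was -0.16.

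Anti-JAML set against anti-PD-1 in CD8 cells gave 13 genes at an unadjusted edgeR p under 0.05, more than the 10 in each of the other 2 contrasts of this population. Sdf2l1 had a log2 difference of -1.03 ± 0.15, its values after anti-JAML being 2.04-fold lower, at an edgeR adjusted p of 0.0505, just above the threshold. Creld2 (-1.07 ± 0.21, edgeR adjusted p 0.113), Dnajb11 (-1.04 ± 0.21, 0.119), Pdia6 (-0.87 ± 0.18, 0.119) and Xbp1 (-0.72 ± 0.15, 0.119) came next. Hsp90b1 (-0.74), Pdia3 (-0.71), Hspa5 (-0.87), Calr (-0.56) and P4hb (-0.63) were lower too, and Derl3 was at least 39.3-fold lower. For these 11 genes every anti-JAML library lay below every anti-PD-1 library, and for none above (background 3.32% lower, 2.6% higher). Derl3, among the 11, was at 0 in every anti-JAML library and entered the test only through the other groups. Syvn1 (0.42 ± 0.38), Herpud1 (0.19 ± 0.19) and Edem1 (0.28 ± 0.35), all of ERAD, had the smallest p among higher values, at edgeR adjusted p from 0.821 to 0.88. The median was -0.25 against 0.015 over all genes, and by role -0.74 for chaperones, -0.67 for disulfide genes, -0.58 for co-chaperones, -0.029 for ERAD genes and -0.25 for genes of entry.

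In that comparison edgeR called 0 of 39 (background 0.00791%), with 13 lower and 0 higher at an unadjusted p under 0.05 (background 4.89% and 5.08%). DESeq2 called the 11 genes above (28.2%, beside 2.79%). A fit that shared the spread over all 24 libraries called 6, and 1 gene, Sdf2l1, passed with RLE in place of TMM, with no filter on low counts, or without CD8 anti-PD-1 library 3. The share of all genes called in these fits is not given here. Without CD8 anti-JAML libraries 2 and 4 the median was -0.41. Prdm1, the transcription factor BLIMP1 of plasma cells and effector T cells, was lower beside them, at 68.0 to 87.4 CPM after anti-PD-1, 53.8 to 77.9 after isotype and 9.91 to 44.3 after anti-JAML (-1.51 ± 0.35, edgeR adjusted p 0.155). After isotype Prdm1 was lower in CD8 than in Treg cells (-0.93 ± 0.17, edgeR adjusted p 0.00695). CD8 libraries had 14396 to 15356 genes detected and 2.31 ± 0.797% mitochondrial counts (mean ± SD, n = 4) after anti-PD-1, and 13257 to 14502 genes and 4.10 ± 1.93% after anti-JAML. The part of Prdm1 in the result was not tested, nor was that of the mitochondrial share. With genes detected as a covariate the median was -0.35.

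In Treg cells the median difference was largest in size, of the 3 antibody contrasts, between anti-PD-1 and isotype. Canx was 2.21-fold higher after anti-PD-1 (1.15 ± 0.25, edgeR adjusted p 0.0939), and Dnajb11 (1.01 ± 0.22, 0.094), Pdia4 (1.32 ± 0.30, 0.094), Sdf2l1 (1.13 ± 0.26, 0.0963) and Hspa5 (1.12 ± 0.27, 0.12) came next, none past the threshold. Hsp90b1 (0.99), Creld2 (0.80), Calr (0.66), P4hb (0.63) and Pdia3 (0.59) were higher without overlap of the groups, and so were Atf6 (1.36 ± 0.49, edgeR adjusted p 0.228), Dnajc3, Ern1 and Ssr1. That made 14 genes above and 0 below, where the background was 5.15% and 3.07%. Dnajb9 (-0.72 ± 0.33), Spcs2 (-0.36 ± 0.23) and Sec61b (-0.41 ± 0.26) had the smallest p among lower values, at edgeR adjusted p from 0.344 to 0.554. Derl3, with 86 counts in libraries 1 and 2 after anti-PD-1 and 0 after isotype, was at least 35.6-fold higher and was not tested by edgeR. By role the medians were 1.12 for chaperones, 0.90 for lectins, 0.72 for disulfide genes, 0.18 for ERAD genes and -0.20 for genes of entry.

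Of 38 genes tested in that comparison edgeR called 0 (background 0.0231% of 12981 genes), with 16 higher and 1 lower at an unadjusted p under 0.05 (background 8.34% and 5.8%). The median was 0.46 against 0.044 over all genes. DESeq2, which tested all 39, called 13, all higher (background 5.77%), the fit over all 24 libraries 7, and edgeR without Treg isotype library 4 called 2. For the last 2 fits the share of all genes called is not given here. Treg libraries after isotype had 12643 to 14378 genes detected and those after anti-PD-1 14031 to 15162. Their mitochondrial share was 3.04 ± 0.780% after isotype and 1.90 ± 1.00% with anti-PD-1 (mean ± SD, n = 4), whose part was not tested. With genes detected as a covariate the median was 0.38, and without anti-PD-1 libraries 1 and 4 it was 0.45.

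Anti-JAML against isotype in Treg cells differed less. Dnajc3 (0.49 ± 0.15, edgeR adjusted p 0.853) was the 1 gene with no overlap, all anti-JAML libraries being above (background 1.67% above, 1.03% below), and Pdia4 (0.65 ± 0.29, 0.898) and Sel1l (0.91 ± 0.43, 0.95) followed. Derl2 (-0.43 ± 0.29), Ssr2 (-0.30 ± 0.21) and Sec61b (-0.35 ± 0.26) had the smallest p among lower values, with edgeR adjusted p of 1. EdgeR called 0 of 38 and 0 of all genes (background 0%), 2 were higher and 0 lower at an unadjusted p under 0.05 (background 3.63% and 1.76%), and DESeq2 called Dnajc3 alone (background 1.12%). The median was 0.21, beside 0.020 over all genes, and 0.080 with genes detected as a covariate.

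Anti-JAML against anti-PD-1 in Treg cells gave lower values of many of the genes that were low in CD8 cells under the same contrast. Dnajb11 (-0.81 ± 0.22, edgeR adjusted p 0.623), Hspa5 (-0.92 ± 0.27, 0.641) and Pdia6 (-0.59 ± 0.18, 0.688) had the smallest p, and Sdf2l1 (-0.78), Hsp90b1 (-0.74), Canx (-0.64) and Creld2 (-0.54) were of like size. Dnajb9 (0.31 ± 0.33), Herpud1 (0.19 ± 0.26) and Dnajc3 (0.083 ± 0.15) headed the higher values, at edgeR adjusted p of 1. In 9 genes, Atf6 and Ern1 among them, every anti-JAML library lay below every anti-PD-1 library, and in 0 above (background 2.3% and 2.27%). EdgeR called 0 of 38 (background 0%), with 10 lower and 0 higher at an unadjusted p under 0.05 (background 2.8% and 2.91%), and DESeq2 called 0 (background 1.01%). The median was -0.24, against -0.028 over all genes, and -0.29 without anti-PD-1 libraries 1 and 4. The 3 contrasts within a population share libraries, so their values are not independent of each other.

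**Figure D3:**
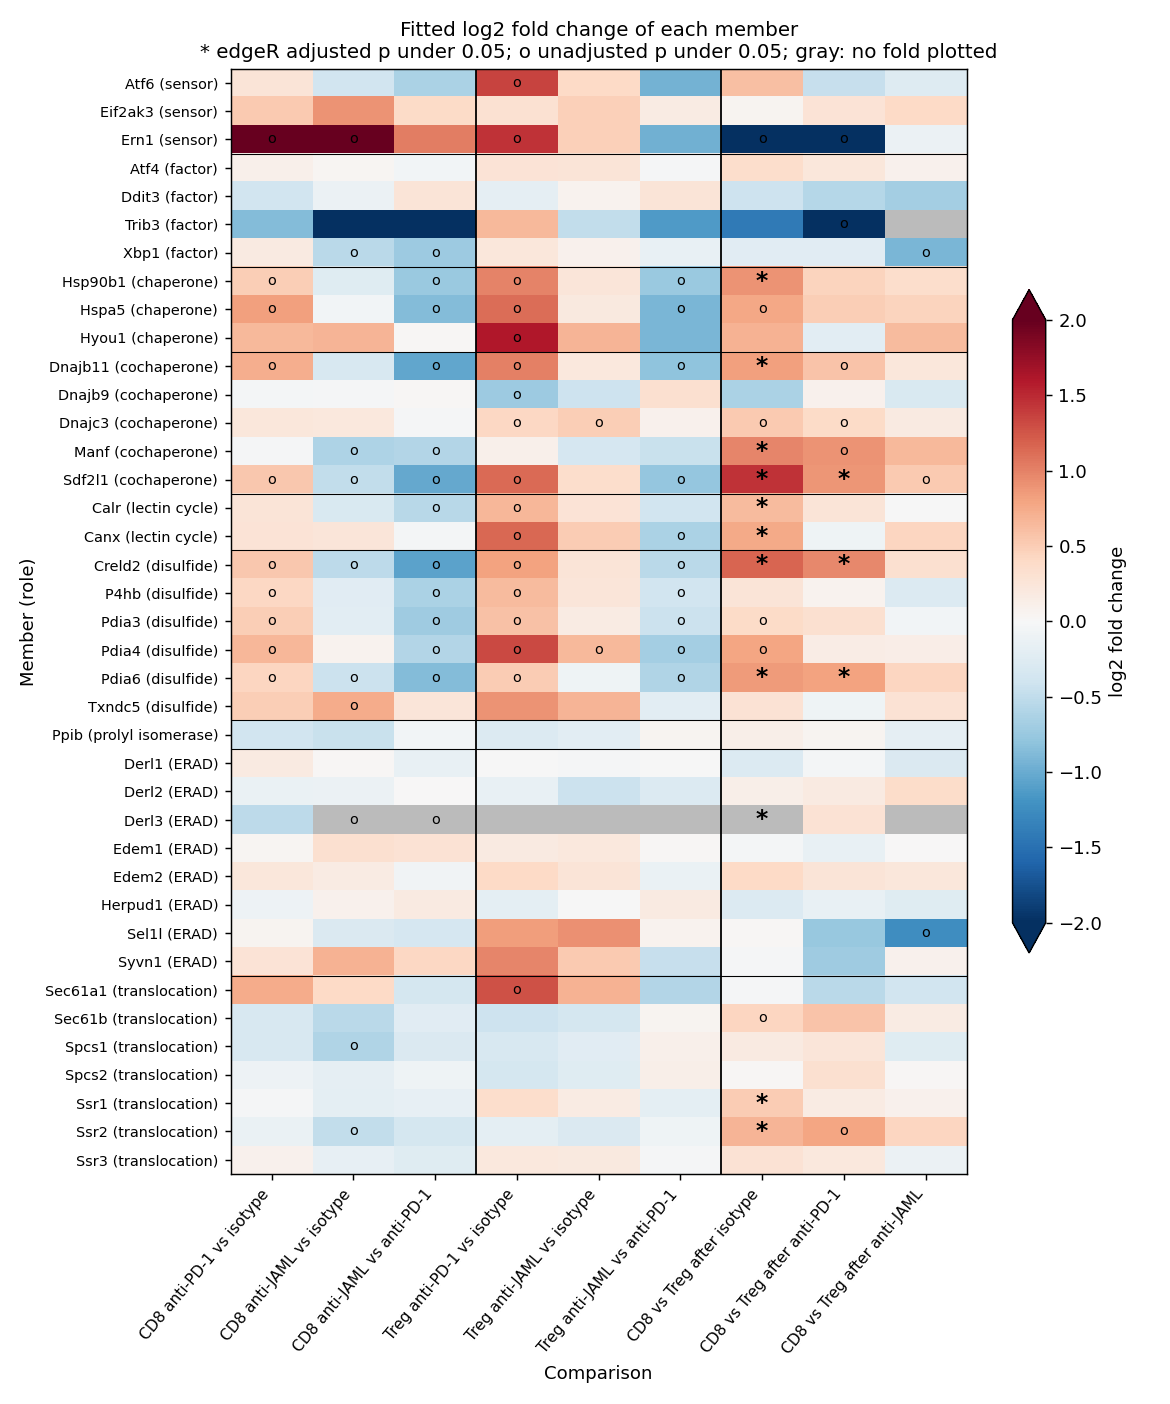
Log2 fold change of each gene (rows, by role) in the 9 comparisons (columns), clipped at 2 in either direction. A star marks an edgeR adjusted p under 0.05, a circle an unadjusted p under 0.05 where no star stands, and gray no fold. Stars stand only in the columns for CD8 against Treg cells after isotype (11) and after anti-PD-1 (3), and circles are most numerous for anti-PD-1 against isotype in Treg cells (17).

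Whether an antibody difference itself differed between populations was tested with an interaction term over 14591 genes, given as CD8 minus Treg. For anti-PD-1 against isotype edgeR called 0 of 39 genes (background 0%), with 0 above and 3 below 0 at an unadjusted p under 0.05 (background 6.25% in either direction), and DESeq2 called 0 (background 1.26%). Canx had the smallest p, -0.90 ± 0.29 (edgeR adjusted p 0.57), its difference being larger in Treg cells, followed by Derl3, at 0 in the Treg isotype group, and Sdf2l1 (-0.63 ± 0.29, 0.754). Hspa5 had an interaction of -0.34 ± 0.34 (edgeR adjusted p 1). Dnajb9 (0.65 ± 0.42), Ern1 (2.54 ± 1.66) and Spcs2 (0.24 ± 0.35) headed the positive values. For anti-JAML against isotype edgeR and DESeq2 called 0 of 39 (background 0% and 1.94%), with 1 above and 5 below 0 at an unadjusted edgeR p under 0.05 (background 8.39%). Sdf2l1 (-0.90 ± 0.29, edgeR adjusted p 0.368), Xbp1 (-0.67 ± 0.23, 0.399) and Creld2 (-0.82 ± 0.29, 0.402) led the negative values. Their anti-JAML against isotype differences in Treg cells were 0.36, 0.079 and 0.26. Ern1 (4.52 ± 1.72), Dnajb9 (0.35 ± 0.42) and Derl2 (0.26 ± 0.42) headed the positive interactions.

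For anti-JAML against anti-PD-1 the interaction gave 0 calls of 39 by edgeR or DESeq2 (background 0% and 0.961%), and 0 above and 1 below 0 at an unadjusted edgeR p under 0.05 (background 5.63%). Xbp1 (-0.60 ± 0.23, edgeR adjusted p 0.835), Creld2 (-0.55 ± 0.29, 0.926) and Pdia3 (-0.29 ± 0.21) had the smallest p among negative values, and Canx (0.59 ± 0.29), Syvn1 (0.87 ± 0.65) and Hyou1 (0.91 ± 0.74) among positive ones. A difference in response between the populations was thus not detectable for any of the genes after adjustment, which does not show that they responded alike. The median interaction was -0.20 for anti-PD-1 against isotype (-0.065 over all genes), -0.32 for anti-JAML against isotype (-0.036) and -0.14 for anti-JAML against anti-PD-1 (0.061). Without Treg anti-PD-1 libraries 1 and 4 the first was -0.22 and the last -0.15. Without CD8 anti-JAML libraries 2 and 4 the second was -0.39 and the last -0.11.

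The 9 genes with an ERSE in the sequences printed above were set beside the 24 matched genes without it, as a description with no test. The 3 comparisons given first had the medians furthest apart, and the others follow. Between CD8 and Treg cells after isotype the median log2 difference of the 9 was 0.77, against 0.15 for the 24. Derl3, at 0 in that Treg group, is counted among the 9. For anti-PD-1 against isotype in Treg cells the 8 tested genes with the element all had positive values, with a median of 0.89, where 16 of 24 without it were positive, with a median of 0.29. In CD8 cells under anti-JAML against anti-PD-1, 8 of the 9 were negative, Derl3 with its empty group among them, with a median of -0.74 against -0.12. Syvn1 was the ninth, at 0.42. Sdf2l1 and Dnajb11, which were among the leading genes of these 3 comparisons, have no exact ERSE in the window, and Dnajb11 has the ERSE-II.

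**Figure D4:**
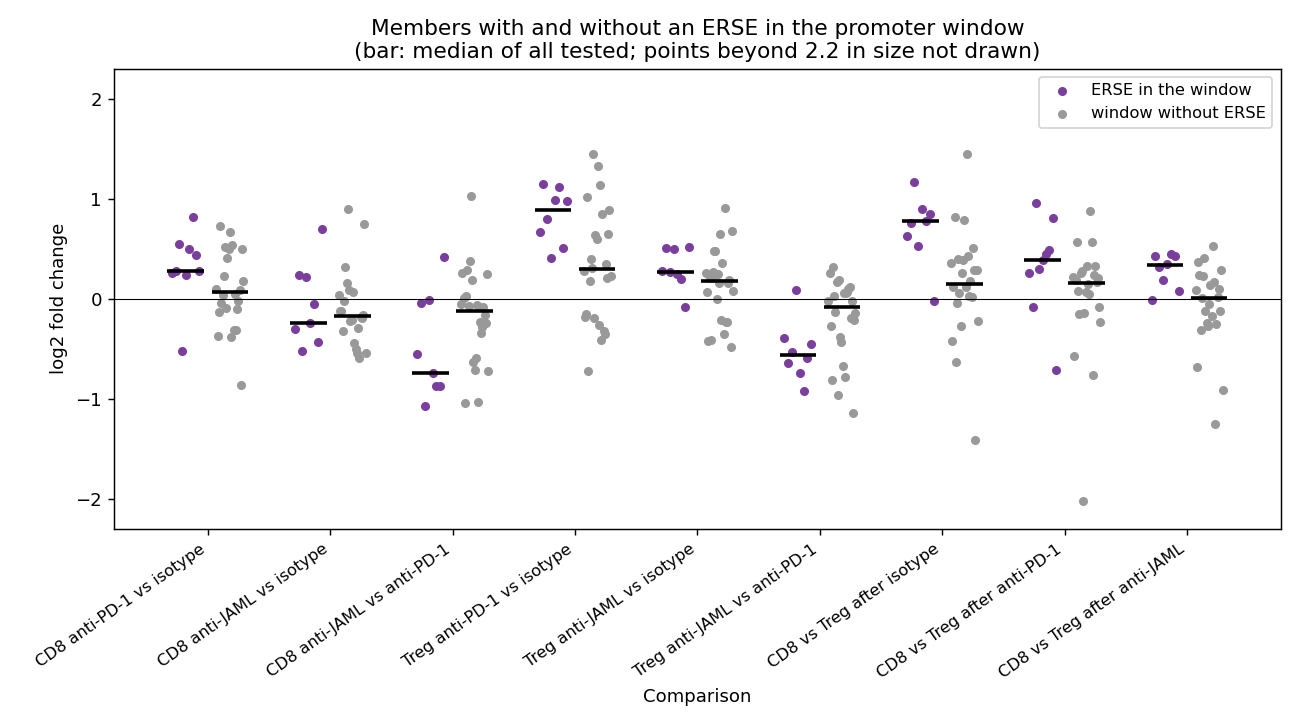
Log2 fold change of each gene with (9) and without (24) an ERSE in its promoter window, for the 9 comparisons; a bar is the median of all tested genes of that kind, and Derl3 where a group is at 0 and points beyond 2.2 in size are not drawn. The medians are furthest apart for CD8 against Treg cells after isotype (0.77 and 0.15), for anti-PD-1 against isotype in Treg cells (0.89 and 0.29) and in CD8 cells for anti-JAML against anti-PD-1 (-0.74 and -0.12).

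Genes of the same pathways outside the 39 were taken from 6 further lists. In CD8 against Treg cells after isotype, 5 of 18 tested PERK-ATF4 targets were higher and 1 lower past the threshold, beside 15.3% of all genes tested in either direction. The higher ones make serine, glycine and one-carbon units: Psat1 (1.14 ± 0.19, edgeR adjusted p 0.00468), Psph (1.12), Shmt2 (1.61), Phgdh (1.61) and Mthfd2 (1.03). The lower one, Ppp1r15a (-0.84 ± 0.25, edgeR adjusted p 0.0488), encodes GADD34, which brings the phosphatase to eIF2alpha. The median of that list was 0.10, against -0.060 over all genes. Of 19 parts of the eIF2alpha, IRE1 and ATF6 pathways 4 were higher, Eif2b3 (1.58), Eif2s1 (1.35) and Eif2b1 (1.02) of translation initiation and the Xbp1 ligase Rtcb (1.16), at a list median of -0.21.

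In that comparison 6 of 28 genes of translocation and glycosylation were higher and 0 lower (background 15.3% in either direction, as for the lists that follow), namely Srp19 (0.83), Spcs3 (0.77), Rpn1 (0.71), Sec11c (0.59), Rpn2 (0.56) and Ddost (0.52), with a list median of 0.32. Rpn1, Rpn2 and Ddost are subunits of the oligosaccharyltransferase. Of 25 further folding genes, Fkbp2 (1.23), Erp44 (0.68) and Erp29 (0.68) were higher and Dnajc1 (-0.87) and the oxidase Ero1l (-0.83) lower (median 0.18). Of 25 further ERAD genes 0 were higher and 3 lower, Rnf139 (-1.80), Erlec1 (-0.94) and Aup1 (-0.49) (median 0.12). Of 25 genes of ER to Golgi traffic, Sec13 (0.81), Lman2 (0.67) and Tmed2 (0.53) were higher and Sec24b (-0.90) lower (median -0.13).

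After anti-PD-1, CD8 cells exceeded Treg cells in the amino acid transporter Slc7a5 (1.45 ± 0.37), and were below them in Ddit4 (-3.41 ± 0.64, edgeR adjusted p 0.0127), an inhibitor of mTORC1, in Pck2 (-1.57) and in Ppp1r15a (-1.23), which makes 1 PERK-ATF4 target up and 3 down of 22 (background 7.83% in either direction). Rtcb (0.71) and Eif2s1 (0.87) were higher among 19 pathway parts, Ngly1 (0.68) among further ERAD genes and Sec13 (0.67) in traffic. In the further folding list Erp44 (0.67) and in translocation Rpn1 (0.54) had the smallest p, neither past the threshold. After anti-JAML 0 of 140 tested genes of the 6 lists passed by edgeR (background 2.08%), 9 were higher and 9 lower at an unadjusted p under 0.05 (background 5.67% and 7.15%), and DESeq2 called 8 (background 7.98%). The smallest p values belonged to Pck2 (-1.87, edgeR adjusted p 0.0727), Eif2b3 (1.45), Ero1l (-1.25), Aup1 (-0.49), Spcs3 (0.69) and Arf4 (-0.49).

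No gene of the 6 lists passed the edgeR threshold in an antibody comparison or an interaction. Of 147 tested for anti-PD-1 against isotype in Treg cells DESeq2 called 14 (background 5.77%), and 26 were higher and 9 lower at an unadjusted edgeR p under 0.05 (background 8.34% and 5.8%). Of 144 tested in CD8 cells for anti-JAML against anti-PD-1 it called 5 (background 2.79%), and 1 was higher and 17 lower (background 5.08% and 4.89%). In the other antibody comparisons it called 0 to 3, and in the interactions 1 to 5. In Treg cells 20 of 24 tested PERK-ATF4 targets had higher values after anti-PD-1 than after isotype, 9 of them at an unadjusted p under 0.05 and 1 lower, with a list median of 0.93; Psat1 had the smallest p of that list (0.87 ± 0.20, edgeR adjusted p 0.0963). Rpn1 (0.74), Lman2 (0.67), Rtcb (0.65), Sdf2 (-1.15) and Ubxn8 (0.65) led the other lists. In CD8 cells the same targets had a median of -0.44 after anti-JAML relative to anti-PD-1, 6 of 21 being lower at an unadjusted p under 0.05 and 0 higher, and Psat1 led again (-0.72 ± 0.15, edgeR adjusted p 0.119), with Rpn1 (-0.77), March6 (-0.66), Lman2 (-0.55), Tmx1 (-0.54) and Eif2ak4 (1.53) first in the other lists. For anti-PD-1 against isotype in CD8 cells the first of each list were Aldh18a1 (0.96), Traf2 (0.57), Sdf2 (-0.82), Faf2 (0.26), Srprb (0.60) and Kdelr1 (-0.85). For anti-JAML against isotype in CD8 cells they were Psph (-0.74), Nfe2l2 (1.21), Fkbp2 (-0.87), Ubxn8 (-0.54), Srp68 (0.88) and Arf4 (-0.47).

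In Treg cells the first of each list for anti-JAML against isotype were Phgdh (0.73), Rtcb (0.47), Pdia5 from few reads, Edem3 (-1.26), Srp9 (-0.49) and Sec22b (-0.54). For anti-JAML against anti-PD-1 they were Psat1 (-0.74), Eif2b3 (-1.11), Sdf2 (0.72), Ube2g2 (-1.24), Rpn1 (-0.53) and Lman2 (-0.50). Psat1, of serine synthesis, and Rpn1, of N-glycosylation, therefore headed their lists in Treg cells for anti-PD-1 against isotype and for anti-JAML against anti-PD-1, contrasts that share the anti-PD-1 libraries. In the interactions the first of each list were Phgdh (-1.06), Eif2b2 (-0.67), Pdia5, Ubxn8 (-0.79), Spcs3 (-0.56) and Tmed9 (0.82) for anti-PD-1 against isotype. For anti-JAML against isotype they were Phgdh (-1.22), Eif2ak4 (2.56), Fkbp2 (-1.16), Ubxn8 (-0.85), Ddost (-0.49) and Sec13 (-0.65). For anti-JAML against anti-PD-1 they were Ppp1r15a (1.11), Eif2b4 (0.55), Tmx3 (-0.70), March6 (-1.23), Ddost (-0.31) and Sec13 (-0.45).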

How the data were processed

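RNA was measured in 24 libraries, 6 groups of 4, made with Smart-seq2, which amplifies polyadenylated RNA of few cells, per the labels' protocols. The authors deposited whole-number counts of reads per gene and, for the same libraries, TPM, a unit scaled by length. The submitters' processing notes name STAR 2.7.3a, fastp 0.20.1, deepTools 3.3.1 and SAMtools and the mm10 build, in no stated role. How reads were counted, on which strand and against which annotation is not given in the sources used here, and overlapping genes are uncertain. Groups came from the labels alone.

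Counts were tested in R 4.3.3 with edgeR 4.0.16 (quasi-likelihood F test, robust, TMM, filterByExpr at a count of at least 10 and a total of at least 15, Benjamini-Hochberg adjustment over all genes tested, two-sided, threshold 0.05). Antibody comparisons were fitted on the 12 libraries of a population, CD8 against Treg on the 8 libraries of an antibody, and interactions on all 24. All 39 genes were tested in CD8 cells, 38 in Treg cells (without Derl3) and 39, 39 and 37 between populations for the isotype, PD-1 and JAML antibodies. A gene with 0 counts in a group has a lower bound against 3 counts over that group; the list medians hold with Derl3 at its bound, which stays at the end of the range. Amplified reads are not independent molecules, so bounds cover counting error only. TPM served only to order the genes.

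The text names every gene of the 39 past the threshold, the 3 with the smallest p in each direction of a comparison, the sensors, Xbp1, Atf4, Ddit3 and Hspa5, and from each further list those past the threshold or else the 1 with the smallest p; others are named for their role. The genes, lists and tests were chosen with earlier results of these data known. Prdm1 was singled out after its values were seen. The alternatives tried were RLE normalization, DESeq2 1.42.0, a replicate block, no filter on low counts, genes detected as a covariate, 1 fit of all 24 libraries, leaving out each library, leaving out CD8 anti-JAML libraries 2 and 4, and, added after seeing the data, leaving out Treg anti-PD-1 libraries 1 and 4. The scripts were tested on simulated data. Promoter windows came from RefSeq (GRCm38.p6) by symbol for 33 of the 39 genes, and gene positions from GENCODE M21.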

Additional observations from a re-analysis of the deposited data

Results flagged for a closer look

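In 8 of 207 groups of 4 libraries, 1 library stood far from the other 3 in a gene's CPM, past Dixon's critical value. Chance gives about 1 in 20 groups. CD8 anti-JAML library 2 accounted for 3 of the 8: Manf at 78.6 CPM against 171 to 187 in the other 3 libraries, Sec61b at 86.2 against 289 to 354, and Trib3 at 0.601 against 0. This library also had the highest summed macrophage level of the CD8 libraries, and the part of that in these values was not tested. Manf was low in CD8 isotype library 2, at 215 CPM against 249 to 256. Xbp1 was low in Treg anti-PD-1 library 2, at 237 CPM against 313 to 318. Ern1 was high in Treg isotype library 2, at 7.12 CPM against 3.55 to 3.92. Hyou1 was low in Treg anti-JAML library 2, at 6.85 CPM against 16.7 to 19.8. P4hb was low in Treg anti-JAML library 3, at 264 CPM against 357 to 374.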

How the results depend on the processing

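The alternatives followed genes of the 39 that passed the threshold in a comparison. They also followed its 3 smallest p in each direction where the unadjusted edgeR p was under 0.05. None of these reversed its direction under any alternative in which it was refitted. Other values named in the report, those of the further lists included, were not followed in this way. The number of the 39 genes past the threshold moved most with the tool. DESeq2 called 4 for CD8 anti-JAML against isotype, 11 for CD8 anti-JAML against anti-PD-1, 13 for Treg anti-PD-1 against isotype and 1 for Treg anti-JAML against isotype, where edgeR called 0 in each. It called 7 rather than 3 for CD8 against Treg after anti-PD-1 and 1 rather than 0 after anti-JAML. The fit of all 24 libraries called 6 for CD8 anti-JAML against anti-PD-1, 7 for Treg anti-PD-1 against isotype and 1 for CD8 against Treg after anti-JAML. RLE normalization and no filter on low counts each gave 1 for CD8 anti-JAML against anti-PD-1. Other than for DESeq2, counts under these alternatives, and with libraries left out, stand without the share of all genes called in the same fit. They cannot be read against a background.

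Leaving out 1 library at a time gave 0 to 1 for CD8 anti-JAML against anti-PD-1, 0 to 2 for Treg anti-PD-1 against isotype, 7 to 15 for CD8 against Treg after isotype and 0 to 5 after anti-PD-1. The medians then ran from -0.34 to -0.16, from 0.42 to 0.61, from 0.30 to 0.44 and from 0.12 to 0.21 in these comparisons. They ran from 0.15 to 0.28 for CD8 anti-PD-1 against isotype, -0.20 to -0.12 for CD8 anti-JAML against isotype, 0.16 to 0.26 for Treg anti-JAML against isotype, -0.28 to -0.23 for Treg anti-JAML against anti-PD-1 and 0.023 to 0.14 for CD8 against Treg after anti-JAML. For the interactions they ran from -0.30 to -0.16 (anti-PD-1 against isotype), -0.40 to -0.25 (anti-JAML against isotype) and -0.20 to -0.044 (anti-JAML against anti-PD-1). The cause of these moves was not tested.

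With genes detected as a covariate the median was -0.35 for CD8 anti-JAML against anti-PD-1 and 0.080 for Treg anti-JAML against isotype. Without CD8 anti-JAML libraries 2 and 4 it was -0.41 for CD8 anti-JAML against anti-PD-1 and 0.018 for CD8 against Treg after anti-JAML. In the fit of all 24 libraries the latter was 0.17. Without Treg anti-PD-1 libraries 1 and 4 the median of CD8 against Treg after anti-PD-1 was 0.30. With the replicate block CD8 against Treg after anti-PD-1 gave 5 calls rather than 3, and after isotype 9 rather than 11, Derl3 (edgeR adjusted p 0.133) and Ssr1 (0.0726) no longer passing. With no filter on low counts the latter comparison also gave 9, Derl3 (0.0647) and Ssr1 (0.0894) being lost. Correlations of same-numbered deviations lay between -0.23 and 0.23. Such weak correlations cannot tell whether the replicate numbers pair the libraries, and the labels do not say. Derl3, Ern1, Trib3 and Eif2ak3 rest on few reads.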
